A study of Mus musculus with 4 samples.

Results

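The dystrophin complex and costamere genes examined here were 8 genes: Dmd, Utrn, Dag1, Sgca, Sgcb, Sgcd, Lama2 and Itga7. They were found on the array by the gene symbol of the platform annotation, which gave 8 probes for 7 of them, 2 probes for Sgcd and none for Sgcb, among 23473 gene probes and 19321 named genes in all. Sgcb was therefore not analysed here. The tissue was ventricular muscle from male 129SV mice, 2 wild-type samples and 2 samples carrying a genetic deletion of TRPC6, a calcium-permeable cation channel. Each sample was read in Cy5 on 1 array. The age of the animals, the design of the deleted allele and whether the 2 samples of a group came from separate animals were not stated, so each p-value reflects the spread among these 4 samples alone, and that spread may be technical.

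Dystrophin, the product of Dmd, lies under the muscle cell membrane and ties cortical actin to a membrane complex of dystroglycan and the sarcoglycans. Dystroglycan binds laminin in the basement membrane, and in muscle the main laminin contains the alpha2 chain encoded by Lama2. Costameres are the bands of such attachments that sit over the Z-discs of striated muscle and carry force sideways to the matrix, and a laminin-binding integrin whose alpha7 chain is encoded by Itga7 works beside the dystrophin complex there. Loss of dystrophin, of a sarcoglycan or of laminin alpha2 causes muscular dystrophy, often with disease of the heart muscle.

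In the ventricle without TRPC6, no member differed from wild type past the test over all genes, and the sizes of the differences were small. Dmd was 11.8% higher in the knockout on the scale used, with no overlap of the groups, and Itga7 was 0.891 times its wild-type level, with overlap. The other 5 measured genes had log2 fold changes between -0.035 and 0.058. Levels are normalized log2 intensities, and a log2 fold change is the knockout mean minus the wild-type mean of these, given ± its limma standard error. The test was limma's moderated test with Benjamini-Hochberg adjustment over the 15955 genes tested, where 0 genes, or 0%, had an adjusted p under 0.05 and 1076, or 6.74%, had an unadjusted p under 0.05. An exact permutation of 2 against 2 arrays cannot give a two-sided p under 0.333.

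Across the 4 arrays, the median gene probe read 95.5 to 106 units while blank spots had medians of 78.4 to 87.5 units, and 76.3% to 83.2% of gene probes were above background, which means above the 95th percentile of the blank and negative control spots of the same array. With 2 arrays a group, their number limits precision throughout. For Trpc6 the spot medians were 80.5 and 89.2 units in wild type against 84.1 and 82.6 units in the knockout. It stayed under the threshold on each of the 4 arrays, at 0.975 to 0.997 times, and could not check the labels. All 9 cardiomyocyte markers were kept, and Myh1, Myh2 and Myh4, myosins of fast skeletal muscle, were above background on 0 of the 4 arrays. The other 5 skeletal muscle markers were kept, with Tnni2, Mybpc2 and Mylpf above background on 4 arrays and Tnnt3 and Actn3 on 2. The line between the first and second scanner gain had a slope of 0.504 and 0.519 on the wild-type arrays and of 0.478 on both knockout arrays. These slopes moved with the genotype, and their part in the results was not tested.

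All 8 member probes were above background on all 4 arrays, also with the 99th percentile as threshold, but by very different margins. The Dmd spot read 1.15 and 1.18 times the threshold of its array in wild type against 1.20 and 1.29 times in the knockout. Utrn lay at 1.06 to 1.11 times and Lama2 at 1.13 to 1.19 times the threshold. These 3 probes were close to background, and on the log scale with an added offset of 50 units their fold changes are understated. The brighter Sgcd probe lay at 3.37 to 3.71 times, Itga7 at 3.34 to 4.20 times, Dag1 at 5.92 to 7.11 times and Sgca at 6.85 to 7.54 times the threshold. Brightness was not compared between genes, since probes differ in how well they bind.

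**Figure D1:**
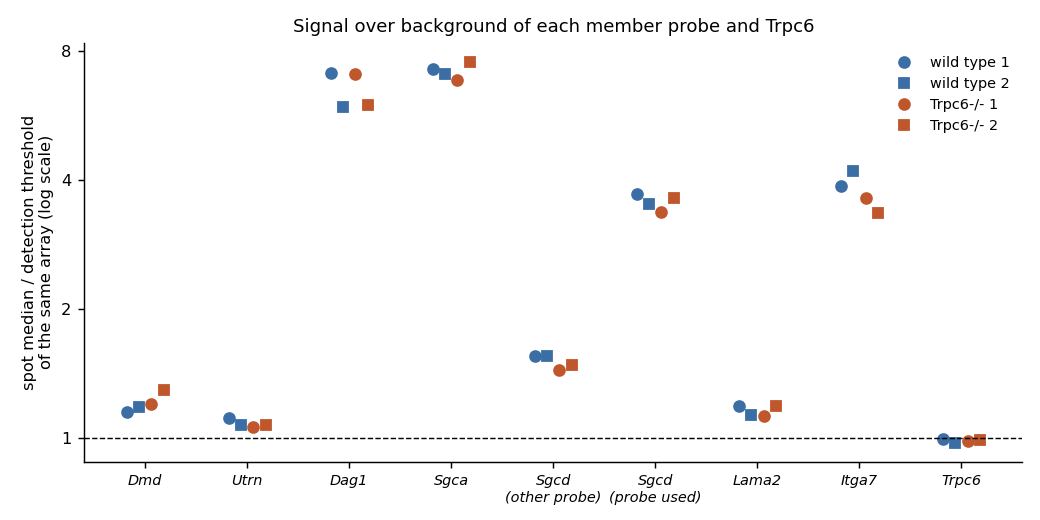
Spot median of each member probe and of Trpc6 divided by the detection threshold of the same array (vertical log axis), with 1 point per array, blue for wild type and orange for Trpc6-/-. The Dmd, Utrn and Lama2 points lie between 1.06 and 1.29 times the threshold, those of Trpc6 lie under the dashed line at 1.

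Dmd encodes dystrophin itself. Its spot medians were 93.0 and 108 units on wild-type arrays 1 and 2, against 102 and 108 units on the knockout arrays 1 and 2. Above the threshold of each array this left 12.2 and 16.3 units in wild type against 16.8 and 24.6 units in the knockout. Both knockout arrays thus lay above both wild-type arrays by this measure, although the spot medians themselves overlapped. The order depended on the background taken. Over the median of its blank spots, 87.5 units, wild-type array 2 stood higher than knockout array 1 did over its own, 82.8 units. The normalized log2 levels were 6.07 and 6.16 in wild type against 6.22 and 6.33 in the knockout, which gives 6.12 ± 0.06 and 6.28 ± 0.08 (SD, n = 2 each). The gap between the group means was 0.16 ± 0.059, against gaps of 0.085 and 0.11 between the arrays of a group. The limma p was 0.0464 unadjusted and the adjusted p was 0.734. The 95% interval of the log2 fold change ran from 0.0039 to 0.32, or from 0.273% to 24.7% higher.

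The authors' deposited table, which holds values without such an offset, gave Dmd 14.3 and 16.2 units in wild type against 18.5 and 27.2 units in the knockout. The ratio of the group means in it was 1.50, and the log2 fold change was 0.56 ± 0.25 with an unadjusted limma p of 0.0575. With any 1 of the arrays left out the log2 fold change was 0.11 to 0.22, where the sign could not turn because the groups did not overlap. Without wild-type array 1 the unadjusted limma p was 0.150, and without knockout array 2, the highest of the 4, it was 0.209. After local background subtraction the difference was 0.033 ± 0.14. The local background beside the Dmd spot was 76.9 and 81.0 units in wild type against 90.5 and 80.6 units in the knockout, so that it was highest on knockout array 1.

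Dmd is read from several start sites, and the upstream and downstream starts give dystrophins of different length. The position of the probe in the transcript was not stated, so the forms it reads are unknown. The 250 bases before 2 of its starts and before a start of Utrn are shown because these are the ends of the member with the smallest p and of its paralogue, from RefSeq on GRCm38.p6. Promoter windows were matched by symbol for 7 of the 8 genes and not for Itga7. Capitals mark matches on either strand to the E-box (CANNTG), the GC box (GGGCGG), the TATA box (TATAAA), the M-CAT element (CATTCCT), the CArG box bound by serum response factor, or the site of the muscle factor MEF2.
Dmd upstream start, chrX:82948620-82948869, plus strand: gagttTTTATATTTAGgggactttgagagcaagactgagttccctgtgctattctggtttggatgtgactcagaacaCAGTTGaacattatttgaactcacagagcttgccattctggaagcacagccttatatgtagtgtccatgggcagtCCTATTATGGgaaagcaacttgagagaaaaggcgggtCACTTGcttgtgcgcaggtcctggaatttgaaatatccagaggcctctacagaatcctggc
Dmd downstream start, chrX:85048045-85048294, plus strand: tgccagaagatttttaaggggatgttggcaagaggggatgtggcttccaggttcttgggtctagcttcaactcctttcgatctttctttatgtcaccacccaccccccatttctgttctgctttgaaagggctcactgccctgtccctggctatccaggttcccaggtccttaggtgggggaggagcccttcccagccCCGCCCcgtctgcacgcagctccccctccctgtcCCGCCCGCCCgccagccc
Utrn, chr10:12861736-12861985, minus strand: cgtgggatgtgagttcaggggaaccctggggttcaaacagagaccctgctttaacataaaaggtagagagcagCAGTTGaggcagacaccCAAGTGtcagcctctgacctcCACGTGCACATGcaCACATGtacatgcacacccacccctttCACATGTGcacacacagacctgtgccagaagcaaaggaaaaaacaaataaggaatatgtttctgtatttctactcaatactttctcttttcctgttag
The upstream Dmd window held 1 CArG box at bases -98 to -89, counted back from the start, 1 MEF2 site at -244 to -235, which overlaps a TATA box match on the other strand, and 2 E-boxes. Of 32851 promoter windows of this length, 1.47% held a CArG box, 2.92% a MEF2 site, 12.4% a TATA box and 66.2% an E-box. The downstream Dmd window held 3 GC boxes, 2 of which overlap, and no match to the other 5 motifs, and 32.7% of all windows held a GC box. The Utrn window held 7 E-boxes, 2 of which overlap, and no match to the others. An M-CAT element, present in 4.51% of windows, was in none of the 9 windows of the members. Lama2 was the other member with a CArG box, at bases -39 to -30 of its window. A match describes letters and does not show that a factor binds there.

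Utrn encodes utrophin, the paralogue of dystrophin that sits at the neuromuscular junction and can take its place in the complex. Its levels were 6.01 and 5.97 on the wild-type arrays against 5.96 and 5.95 on the knockout arrays. The arrays of a group differed by 0.043 in wild type against 0.015 in the knockout, and the knockout pair lay just below the wild-type pair. The log2 fold change was -0.035 ± 0.040 with an adjusted limma p of 0.903, and its 95% interval ran from -0.14 to 0.071. In the authors' deposited table Utrn read 11.4 and 8.3 units in wild type against 7.6 and 8.3 units in the knockout, so that 1 wild-type array stood above the other 3. With scaling to a common 75th percentile the sign turned, to 0.013 ± 0.054. The probe was the dimmest of the members relative to its threshold, so a difference in utrophin transcript smaller than the background scatter would not have been detectable here.

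**Figure D2:**
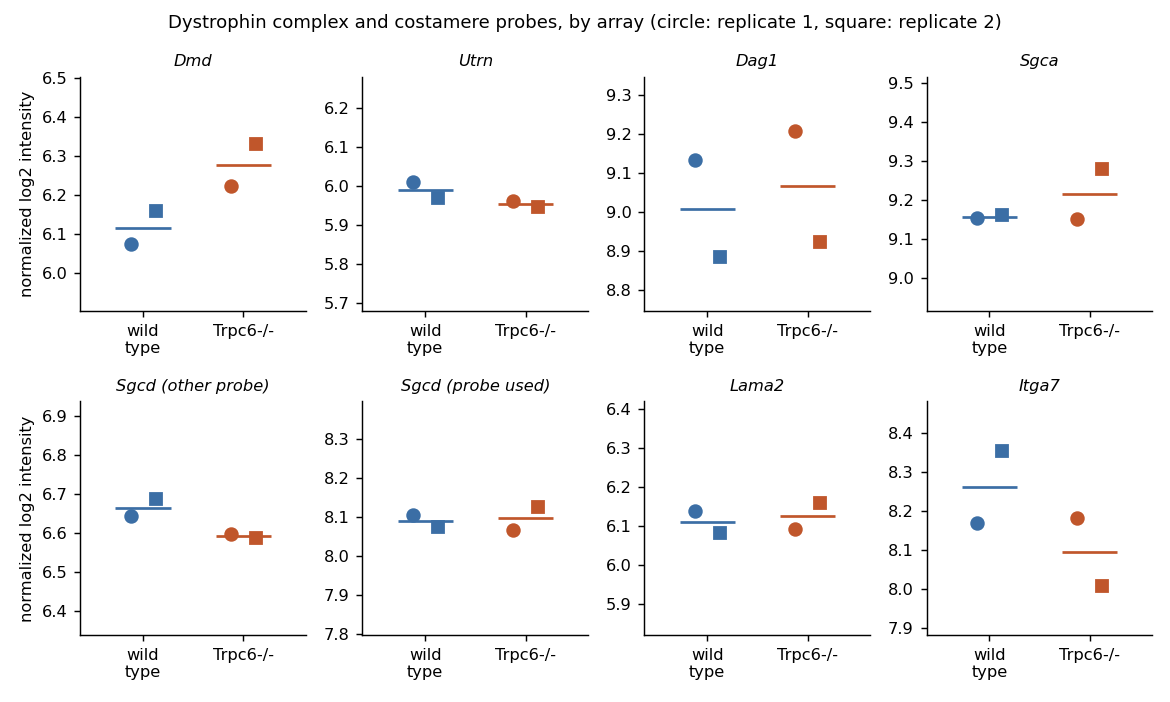
Normalized log2 intensity of the 8 member probes on each array, in panels that each span 0.6 log2 units, with wild type in blue, Trpc6-/- in orange, circles for replicate 1, squares for replicate 2 and bars for group means. The Dmd pairs do not overlap (6.07 and 6.16 against 6.22 and 6.33), while the Dag1 pairs are split by replicate number rather than by genotype.

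Dag1 encodes dystroglycan, the laminin receptor at the centre of the complex. Its levels were 9.13 and 8.88 on the wild-type arrays against 9.21 and 8.92 on the knockout arrays. The arrays numbered 1 were high and those numbered 2 low in both genotypes, and the gaps within the groups, 0.25 and 0.28, were larger than the log2 fold change of 0.058 ± 0.13. The adjusted limma p was 0.959. The 95% interval of -0.29 to 0.41 was the widest of the 7 members and spans differences of -18.3% to 32.7% in the knockout. The sign turned without wild-type array 2, to -0.067, and without knockout array 1, to -0.085. In the authors' deposited table Dag1 read 487 and 366 units in wild type against 495 and 426 units in the knockout, the same split by number.

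The sarcoglycans are single-pass membrane proteins that join into a subcomplex beside dystroglycan and stabilise it. Sgca, alpha-sarcoglycan, was at 9.16 on both wild-type arrays against 9.15 and 9.28 on the knockout arrays. Knockout array 2 stood above the other 3. The log2 fold change was 0.057 ± 0.056 with an adjusted limma p of 0.886, and it was -0.0066 without knockout array 2. The 95% interval ran from -6.22% to 15.4%.

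Sgcd, delta-sarcoglycan, had 2 probes, annotated to different transcript records of the gene. The parts of the transcript that they read are unknown. The brighter one, which stood for the gene in the test, was at 8.11 and 8.08 in wild type against 8.07 and 8.13 in the knockout, a log2 fold change of 0.0061 ± 0.043 with an adjusted limma p of 0.989. The knockout values lay on both sides of the wild-type pair, and the 95% interval ran from -7.23% to 8.72%. The other probe was at 6.64 and 6.69 in wild type against 6.60 and 6.59 in the knockout. There the knockout pair lay below the wild-type pair, with a log2 fold change of -0.073 ± 0.039 and an adjusted limma p of 0.792 when every kept probe was fitted, a fit chosen after the data were seen. The probes thus disagreed in sign, and neither passed the test. The sign of the brighter probe also turned without wild-type array 2 and without knockout array 2, to -0.0090 and -0.024.

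Lama2 encodes the laminin chain that dystroglycan and the alpha7 integrin bind in the muscle basement membrane. Its levels were 6.14 and 6.08 in wild type against 6.09 and 6.16 in the knockout. The groups overlapped, and the log2 fold change was 0.017 ± 0.047 with an adjusted limma p of 0.966 and a 95% interval of -0.11 to 0.14. It was -0.012 without wild-type array 2 and -0.016 without knockout array 2. In bulk tissue, fewer cells of a type and less RNA per cell cannot be told apart. The 7 fibroblast markers, summed on the linear normalized scale, came to 4331 to 4792 units on the wild-type arrays against 3501 to 4015 units on the knockout arrays. All 7 were above background on all 4 arrays, but Col1a1 was about as dim as Lama2. It was at 6.19 and 6.11 in wild type against 6.14 and 6.25 in the knockout. Only 4 of the 7 were lower in the knockout, with a median log2 fold change of -0.030, and the lower sum came from Dcn, the brightest of them. Without Dcn the sums were 1433 to 1907 units in wild type against 1646 to 1661 units in the knockout, which overlap. The part of the fibroblast markers in the Lama2 value was not tested.

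Itga7 encodes the alpha chain of the laminin-binding integrin of muscle, and had the lowest log2 fold change of the members. Its levels were 8.17 and 8.36 on the wild-type arrays against 8.18 and 8.01 on the knockout arrays. Wild-type array 2 was the highest and knockout array 2 the lowest, and on the arrays numbered 1 the knockout was just above wild type. The log2 fold change was -0.17 ± 0.093, with an unadjusted limma p of 0.139 and an adjusted p of 0.790. The 95% interval ran from -24.9% to 5.70%. The size depended on both arrays numbered 2, since the value was -0.074 without that of wild type and -0.079 without that of the knockout.

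The authors' deposited table gave Itga7 231 and 239 units in wild type against 216 and 202 units in the knockout, with no overlap and a ratio of group means of 0.890. Subtracting the local background turned the sign, to 0.49 ± 0.12, with an unadjusted limma p of 0.0205 and an adjusted p of 0.503. The local background beside the Itga7 spot was itself 216 and 251 units in wild type against 148 and 104 units in the knockout, and thus differed more between genotypes than the spot did. Across all spots, local background and spot signal had a correlation of log2 values of 0.931 to 0.967 on the 4 arrays, which is given as a description.

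**Figure D3:**
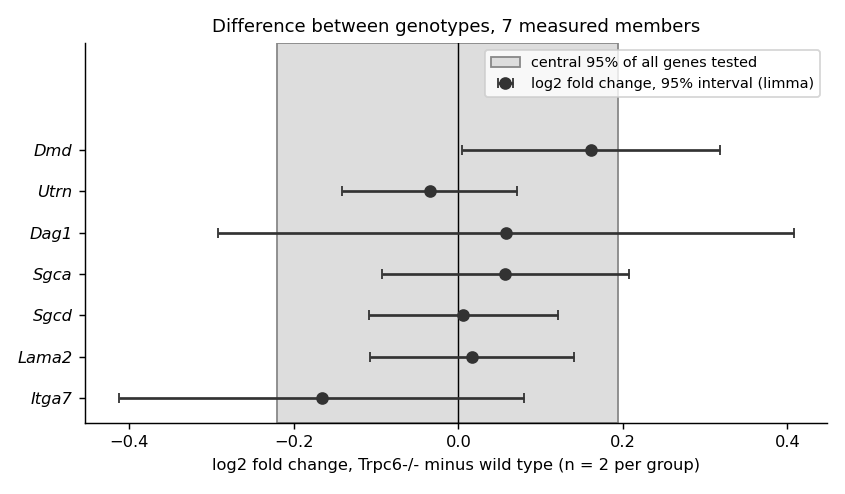
Log2 fold change of the 7 measured members, Trpc6-/- minus wild type (points), with 95% limma intervals (bars) and the range of the central 95% of all genes tested (grey, -0.22 to 0.19). All 7 points lie inside the grey range, and only the interval of Dmd, from 0.0039 to 0.32, does not cross 0.

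As a group, 5 of the 7 tested members were higher and 2 lower, with a median log2 fold change of 0.017. Over all genes 51.1% were higher, with a median of 0.0017. The count had 1 member at an unadjusted limma p under 0.05, in the higher direction, where 3.67% of all genes were higher and 3.08% lower at that p. The groups did not overlap in 2 members, Dmd and Utrn, against 36.8% of all genes. With 7 genes, neither count is read as a result about the complex. The count depended on single arrays. Without wild-type array 2 or knockout array 2 only 2 of the 7 were higher, with medians of -0.012 and -0.016.

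**Figure D4:**
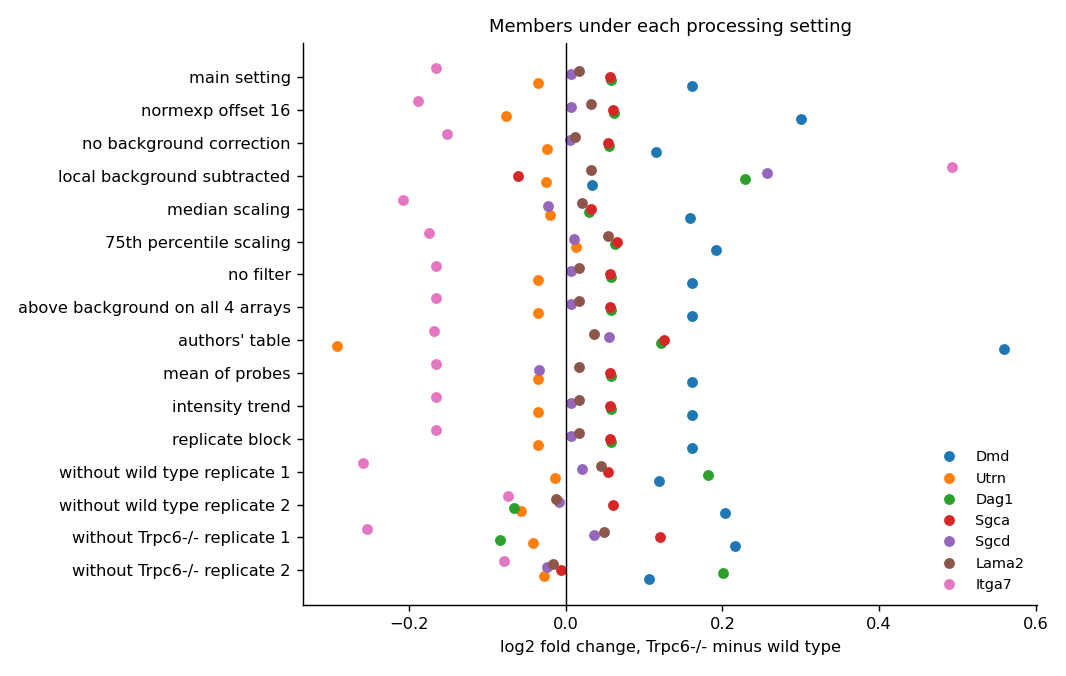
Log2 fold change of each member (coloured points) under the main setting and 15 alternatives, including each array left out. Dmd stays right of 0 in every setting shown, between 0.033 and 0.56, while Itga7 is left of 0 except after local background subtraction, at 0.49. The filter, probe-mean, intensity-trend and replicate-block settings could not change the Dmd value.

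The rest of the dystrophin complex showed as little. Of 12 further genes kept, 8 were higher and 4 lower, with a median of 0.028, and none had an unadjusted limma p under 0.05. Their log2 fold changes lay between -0.065 and 0.094. Sgce, epsilon-sarcoglycan, was at 7.89 and 7.92 in wild type against 7.87 and 7.80 in the knockout, the only one of the 12 without overlap, at -0.065 ± 0.044. Dmpk, a protein kinase mutated in myotonic dystrophy, was 0.066 ± 0.052, the syntrophin gene Sntb2, an adaptor of the complex, was 0.056 ± 0.047, and the dystrobrevin gene Dtnb was 0.075 ± 0.067. Sntg1, Sntg2, Nos1 and Ank2 were not above background on at least 2 arrays.

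Genes that add sugars to dystroglycan, without which it does not bind laminin, held 3 of 13 at an unadjusted limma p under 0.05, all higher, with a median over the list of 0.018 and 8 higher against 5 lower. B3galnt2, which adds an N-acetylgalactosamine, was at 6.30 on both wild-type arrays against 6.46 and 6.54 in the knockout, 1.15-fold higher. B4gat1, a glucuronyltransferase that primes the laminin-binding chain, was at 8.10 and 8.13 against 8.26 and 8.24, 1.10-fold higher. Dpm3, a subunit of the dolichol-phosphate-mannose synthase, was at 8.04 and 8.14 against 8.24 and 8.23. Its partner subunit Dpm2 went the other way, at 6.76 and 6.96 against 6.73 and 6.53, with an unadjusted limma p of 0.0845. Leaving out 1 array moved Dpm2 to between -0.32, without wild-type array 1, and -0.12, without wild-type array 2. The knockout and wild-type pairs of these 4 genes, and of 9 of the 13, did not overlap, where 36.8% of all genes did not. The lowest adjusted limma p of the list was 0.7268. With 1 array left out, the log2 fold change was 0.16 to 0.24 for B3galnt2, 0.12 to 0.15 for B4gat1 and 0.093 to 0.19 for Dpm3. Their signs could not turn there, because the groups did not overlap.

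Among the integrin, talin and vinculin genes of the costamere, 17 of 27 were higher and 10 lower, with a median of 0.021, and 1 higher and 2 lower genes had an unadjusted limma p under 0.05. Itga9, another integrin alpha chain, was at 6.85 and 6.77 in wild type against 7.02 and 7.01 in the knockout. Itgb1bp2, melusin, a muscle protein that binds the integrin beta1 tail, was at 10.47 and 10.61 against 10.32 and 10.34, a difference of -13.5%. Parva and Lims1, parvin and PINCH partners of the integrin-linked kinase, had log2 fold changes of -0.15 ± 0.050 and -0.29 ± 0.11. Lims1 was at 7.67 and 7.98 in wild type and ranged from -0.44 without the first of these arrays to -0.13 without the second. Itgb1, the beta chain that pairs with the product of Itga7, was chosen for mention after its value was seen and was 0.021 ± 0.098.

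Of 24 basement membrane genes, 19 were higher and 5 lower, with a median of 0.031, 1 in each direction at an unadjusted limma p under 0.05. Lamc1, the laminin gamma1 chain that assembles with laminin alpha2, was at 7.78 and 7.73 in wild type against 7.99 and 8.12 in the knockout, 1.23-fold higher. Lamb2, the beta2 chain, was at 10.52 and 10.65 against 10.44 and 10.39, a difference of -11.0%, so that chains of the same laminin family lay on both sides. Nid1, nidogen, which links laminin to collagen, was 0.22 ± 0.097, and the proteoglycan gene Hspg2 0.068 ± 0.039. Nid1 ranged from 0.11 without wild-type array 2 to 0.33 without wild-type array 1. The excess of higher genes was lost without wild-type array 2, where 11 of 24 were higher with a median of -0.0026.

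The intermediate filament and spectrin genes were split evenly, 6 of 12 higher, with a median of 0.012, and none had an unadjusted limma p under 0.05. Sptb, beta-spectrin, was at 7.50 and 7.84 in wild type against 7.42 and 7.30 in the knockout, and the log2 fold changes of Obsl1, Sptan1 and Plec were -0.38 ± 0.24, 0.15 ± 0.095 and 0.070 ± 0.039. Obsl1 was at 8.38 and 8.69 in wild type against 8.48 and 7.82 in the knockout, and Sptan1 at 8.61 and 8.70 against 8.68 and 8.92, so that both pairs overlapped and knockout array 2 stood apart in each. Leaving out 1 array moved Obsl1 to between -0.71 and -0.056 and Sptan1 to between 0.026 and 0.27, in both cases nearest 0 without knockout array 2. Sptb ranged from -0.48 without wild-type array 1 to -0.14 without wild-type array 2. Of 16 membrane repair genes 11 were higher, with a median of 0.012 and 2 at an unadjusted limma p under 0.05. S100a10, the partner of annexin A2, was at 8.61 on both wild-type arrays against 8.82 and 8.83 in the knockout. It was 1.16-fold higher, and its unadjusted limma p was 0.00311 and its adjusted p 0.727. Ehd1, a membrane-remodelling ATPase, was at 6.97 and 7.23 against 7.34 and 7.52, while Capn3, a muscle calpain, and Ehd2 were -0.11 ± 0.061 and 0.081 ± 0.045. Without wild-type array 1 Ehd1 was 0.20 and Capn3 -0.041, the values nearest 0 with 1 array left out.

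The list of stress markers that accompany muscular dystrophy of the heart had the widest spread, with 9 of 12 higher and a median of 0.052. At an unadjusted limma p under 0.05 were Acta1, Nppa and Ankrd1. Ankrd1, a stretch-responsive ankyrin-repeat protein, was at 13.12 and 12.90 in wild type against 12.44 and 12.80 in the knockout, a difference of -23.9%, whereas Acta1 and Nppa were 1.64-fold and 1.56-fold higher. Ccn2, a matrix growth factor, was at 8.22 and 9.53 in wild type against 7.92 and 8.06 in the knockout, a log2 fold change of -0.89 ± 0.44. It rested on wild-type array 2 and ranged from -0.23 without that array to -1.54 without the other. With 1 array left out, Acta1 ranged from 0.44 to 0.99 and was lowest without knockout array 1, Nppa ranged from 0.33 to 0.95 and was lowest without knockout array 2, and Ankrd1 ranged from -0.58 to -0.21 and was nearest 0 without knockout array 1. None of the 4 had an adjusted limma p under 0.05. The 4 kept atrial markers summed to 3512 to 3518 units in wild type against 4316 to 6468 units in the knockout, but that sum is mostly Nppa itself. The other 3, Myl7, Myl4 and Nr2f2, summed to 231 to 329 units in wild type against 237 to 245 units in the knockout, which overlap, with 1 of them higher and 2 lower. Much of that smaller sum is the added offset of 50 units per gene. Local background subtraction turned the sign of Sgce, B4gat1, Dpm2, Parva, Lims1, Hspg2, S100a10, Ankrd1 and Ccn2 among the genes named from these lists.

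**Figure D5:**
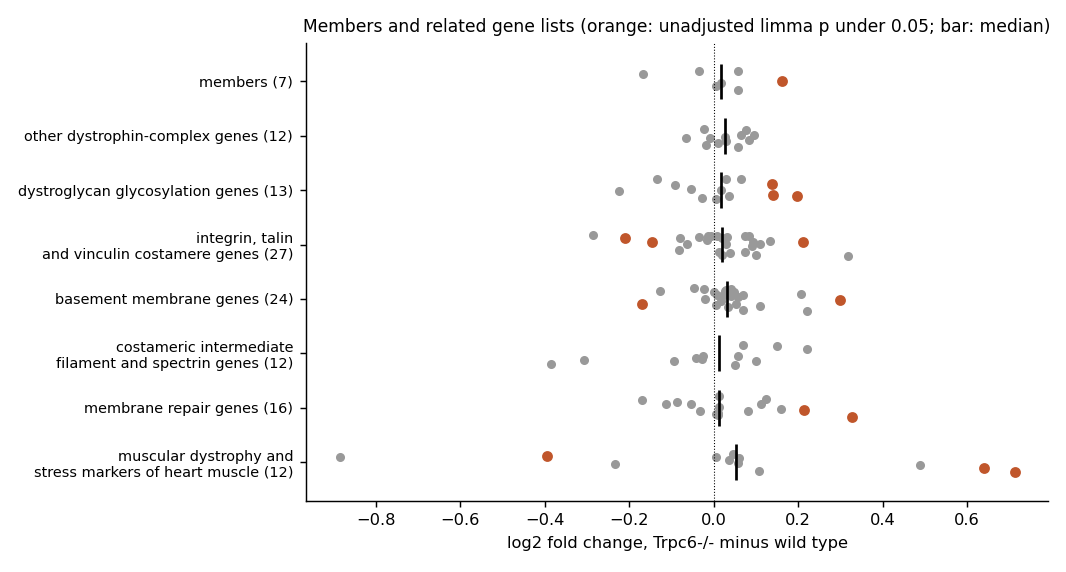
Log2 fold change, Trpc6-/- minus wild type, of each kept gene of the members and of 7 related lists (points, gene counts in brackets, orange where the unadjusted limma p was under 0.05), with list medians as bars. The medians lie between 0.012 and 0.052, and the members span -0.17 to 0.16.

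Markers of cell types were read on the same arrays. The summed level of the cardiomyocyte markers was 226607 to 232445 units in wild type against 232344 to 237149 units in the knockout, that of the 7 endothelial markers 1599 to 1608 and 1438 to 1506 units, and that of the 8 smooth muscle and pericyte markers 2553 to 2622 and 2534 to 3171 units. The 5 kept red cell markers summed to 1215 to 3070 units in wild type against 3670 to 3807 units in the knockout, the 7 macrophage markers to 1352 to 1560 and 1490 to 1764 units, and the 3 Schwann and nerve markers to 266 to 273 and 272 to 273 units. The 5 kept skeletal muscle markers summed to 428 to 448 and 431 to 447 units. Every gene brings the added offset of 50 units into such a sum. Much of the skeletal muscle sum and of the Schwann and nerve sum is therefore offset, and their likeness between groups says little about the markers. Endothelial sums were lower on both knockout arrays than on both wild-type arrays, with 5 of 7 markers lower and a median of -0.071. Without Egfl7, the brightest, they were 1050 to 1059 units against 999.1 to 1035 units. Red cell sums were higher on both knockout arrays, with all 5 kept markers higher and a median of 0.94. Without Hbb-bs, the brightest, they were 772 to 1858 units in wild type against 2292 to 2295 units in the knockout. The part of these shifts in the values of the members was not tested.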

How the data were processed

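The authors deposited 1 scanner file per array with, per the file headers, linear median intensity at 635 nm for every spot and its surroundings, joined from 3 scanner gains in a way not given in the sources used here. They also deposited a table of processed intensity of the same arrays. On each array it followed the spot medians in a straight line (residuals up to 0.0523 units): a constant of 78.4 to 87.8 units was subtracted and the rest scaled by 0.807 to 1.02 to a column median of 25. Between 3714 and 4955 cells of dim probes per array were empty, by a rule that is not known.

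With limma 3.58.1 (R 4.3.3), normexp with an offset of 50 was fitted on the medians of all spots, without the local background. Control spots were left out, log2 values were quantile normalized, and probes above background on at least 2 arrays were kept. Of 16999 kept probes with a symbol, the brightest stood for its gene, giving 15955 genes. Groups were compared with lmFit and eBayes, without covariates (2 residual and 2.49 prior degrees of freedom), with two-sided p-values adjusted by Benjamini-Hochberg and a threshold of 0.05. The fit was tested on simulated data, with changes far larger than the differences seen in the members. How well it resolves differences of their size was not tested. The members, the lists and the alternatives were chosen with earlier results of these data known. Named were all members, Trpc6 and the 4 genes of smallest p in each related list. Symbols came from the platform annotation, through entrez IDs to GRCm38.p6 names where a list needed it. The authors' table entered 1 alternative, with empty cells set to a floor of 2 units.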

Additional observations from a re-analysis of the deposited data

How the results depend on the processing

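No alternative gave a member an adjusted limma p under 0.05. Dmd stayed higher in the knockout under all 15 alternatives, but many of these could not turn its sign. With 1 probe above background on all 4 arrays, its log2 fold change stayed at 0.16 with the other filters and the mean of probes. It also stayed there with the intensity trend and the replicate block. Leaving out 1 array could not turn the sign either, since the groups did not overlap. The other settings gave 0.033 to 0.56. Among them the unadjusted limma p was under 0.05 only with the offset of 16 (0.0231) and with 75th percentile scaling (0.0178). Leaving out each array in turn gave log2 fold changes of -0.085 to 0.20 for Dag1, -0.0066 to 0.12 for Sgca, -0.024 to 0.036 for Sgcd, -0.016 to 0.049 for Lama2 and -0.0053 to 0.16 for Dtnb. It gave a median over the members of -0.016 to 0.045 with 2 to 5 of them higher and 0 to 1 at an unadjusted p under 0.05. Over all genes it gave 444 (without knockout array 2) to 2344 (without wild-type array 1) at an unadjusted p under 0.05 and 0 to 1 at an adjusted p under 0.05. The 1 gene was Hba-a2, an alpha-globin, at an adjusted limma p of 0.0487 without wild-type array 2. List medians ranged, in the order of the text, over 0.0053 to 0.055 (other dystrophin complex), -0.026 to 0.059 (glycosylation), -0.0019 to 0.058 (integrin, talin and vinculin), -0.0026 to 0.051 (basement membrane), -0.038 to 0.073 (filament and spectrin), -0.0089 to 0.055 (membrane repair) and 0.027 to 0.10 (stress markers).

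After local background subtraction the sign turned for Sgca (-0.061), Itga7 (0.49), Sgce (1.04), B4gat1 (-0.020), Dpm2 (0.0029), Parva (0.074), Lims1 (0.45), Hspg2 (-0.024), S100a10 (-0.14), Ankrd1 (0.084) and Ccn2 (0.25), 2 members, Sgcd and Itga7, had an unadjusted p under 0.05, and the integrin, talin and vinculin median was -0.0080. The sign of Sgcd turned with median scaling (-0.023) and with the mean of its probes (-0.034), and that of Utrn with 75th percentile scaling (0.013). The last setting moved the medians of members, basement membrane and membrane repair genes to 0.054, 0.058 and 0.048, and that of all genes to 0.039. In the authors' deposited table these 3 medians were 0.056, 0.091 and 0.074, those of other dystrophin-complex, integrin, filament and stress genes 0.082, 0.050, 0.083 and 0.15, and 677 genes had an unadjusted p under 0.05. The number of members at that p was 0 without background correction, with median scaling and in the authors' table. The causes were not tested. The 585 higher and 491 lower genes became 397 and 676 with median scaling, 718 and 415 with 75th percentile scaling and 221 and 456 in the authors' table.

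The replicate numbers were not shown to pair the samples. Deviations of same-numbered arrays had a correlation of 0.0967 over genes. With the replicate block, 1148 genes had an unadjusted p under 0.05, Dag1 was 0.058 ± 0.047 with an adjusted limma p of 0.861, Dmd was 0.16 ± 0.046 with one of 0.653, and no call was gained or lost. A slide or scan term was not run, since the files name neither. Among the members, signal over background limits Dmd, Utrn and Lama2 most. Sntb2, Hspg2 and Capn3 of the related lists were about as dim, with group means of 5.93 to 6.15. Their fold changes are understated in the same way.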
